A study of Mus musculus with 28 samples.

Results

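Foxp3 is the transcription factor that defines regulatory T (Treg) cells, and this account follows Foxp3 together with 9 genes that act around it, 10 genes in all of the 53801 features of the expression table. The genes were chosen by name as partners of Foxp3 and markers of Treg cell identity, and all 10 have a row in the table. RNA came from Treg cells sorted as TCR+, CD4+, CD25hi, CD127lo from the spleen or from CT2A tumors, a murine glioblastoma (GBM) line grown in the forebrain. Mice received control IgG or the combination of antibodies to GITR and PD1 (aGITR+aPD1), 4 doses of 250 µg given every 3 days once tumors reached 2 mm3, and tissue was taken 2 days after the last dose. The groups were splenic Treg cells from mice given IgG (7 libraries) or aGITR+aPD1 (8 of 9 described) and GBM Treg cells from mice given IgG (5) or aGITR+aPD1 (7). All groups, controls included, came from tumor-bearing mice, so a spleen without a tumor is not among the comparisons, and neither antibody was given alone. Within a tissue each library was described as a different mouse. Whether a spleen and a tumor of the same number came from 1 mouse is not stated, and the study's text counts fewer animals than there are spleen libraries. Levels are TPM, which scale transcripts by their length and by the library total.

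In Treg cells Foxp3 is kept on by signals from the T cell receptor and the IL-2 receptor, and works in complexes with other DNA-binding proteins. Runx1 and its non-DNA-binding subunit Cbfb bind the Foxp3 locus and the Foxp3 protein. Ets1 binds the demethylated Foxp3 enhancer, Satb1 organizes chromatin while Treg cells form and is repressed by Foxp3 in mature ones, and Foxo1 drives Foxp3 induction and the genes of resting T cells. Ikzf2 (Helios) and Ikzf4 (Eos) are Ikaros family factors, the latter a corepressor partner of Foxp3. Nrp1, a semaphorin co-receptor, marks Treg cells of thymic origin, and Izumo1r encodes folate receptor 4 (FR4). The study graded anergy of these cells by FR4 and CD73 together, beside Helios and IL-10, all as proteins by flow cytometry.

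Foxp3 lies on chromosome X from 7573644 to 7595245 on the plus strand of mm10. Of its 4577 exonic bases, 18.6% are shared with exons of the noncoding gene Flicr, the largest overlap. The level of Flicr was between 0.060 and 27.4 TPM in the 27 libraries, against 21.5 to 440 TPM for Foxp3. Exons of Ccdc22, Gm36995 and Ppp1r3f also overlap those of Foxp3, each by fewer bases. Ccdc22 reached 59.6 TPM and Ppp1r3f 39.0 TPM. In the library where they came closest, Foxp3 was 1.945 times Ccdc22 and 1.602 times Ppp1r3f, against 6.24 times for Flicr. How the quantification divided reads between overlapping genes cannot be seen in the table. The largest exonic overlap of any other of the 10 genes with another gene was 7.78% of the exonic bases of Foxo1. The bases at the 2 annotated Foxp3 starts and at the Izumo1r start, the gene with the highest mean level of the 10 in the spleen, are shown because both genes varied together between libraries (below). They come from the RefSeq promoter table of build GRCm38.p6, 250 bases before to 50 after the start, in the direction of the gene. Capitals mark letters of the searched motifs TGTGGT (RUNX), TGTTTAC (forkhead), TGGGAA (Ikaros family) and TTCNNNGAA (STAT5) or their reverse complements.
Foxp3, chrX:7579426-7579725, plus strand: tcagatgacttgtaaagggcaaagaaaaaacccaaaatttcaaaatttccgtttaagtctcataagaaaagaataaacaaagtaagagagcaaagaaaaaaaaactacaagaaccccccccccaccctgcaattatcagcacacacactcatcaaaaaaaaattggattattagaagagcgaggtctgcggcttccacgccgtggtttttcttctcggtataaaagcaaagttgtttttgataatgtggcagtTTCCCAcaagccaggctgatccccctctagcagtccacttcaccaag
Foxp3, chrX:7580233-7580532, plus strand: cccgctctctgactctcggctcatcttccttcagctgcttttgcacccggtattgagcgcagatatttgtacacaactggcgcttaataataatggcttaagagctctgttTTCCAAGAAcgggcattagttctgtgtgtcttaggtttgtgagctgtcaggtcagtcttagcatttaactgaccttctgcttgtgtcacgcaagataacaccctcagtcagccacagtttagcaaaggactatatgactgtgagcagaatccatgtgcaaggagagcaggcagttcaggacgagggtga
Izumo1r, chr9:14903718-14904017, minus strand: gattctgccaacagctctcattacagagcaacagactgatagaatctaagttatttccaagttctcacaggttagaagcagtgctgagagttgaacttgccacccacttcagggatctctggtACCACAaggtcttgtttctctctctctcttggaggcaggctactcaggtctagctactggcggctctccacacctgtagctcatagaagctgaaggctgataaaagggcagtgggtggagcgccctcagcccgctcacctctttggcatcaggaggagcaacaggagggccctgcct
The first Foxp3 window holds 1 Ikaros family match, which begins 4 bases into the transcript and also contains the ETS core GGAA. The second holds 1 STAT5 match that begins 139 bases before the start, and the Izumo1r window holds 1 RUNX match that begins 127 bases before the start. Of 32851 promoters in the table, 25.6% hold the Ikaros family letters, 8.3% the STAT5 letters, 16.8% the RUNX letters, 3.65% the forkhead letters and 96.0% the ETS core. Promoter entries matched 7 of the 10 genes. Ikzf2, Ikzf4 and Ets1 had none.

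The sorted cells had the transcripts of their gate. Foxp3, Cd4, Cd3e, Trac and Il2ra were above 0 in all 27 libraries, while of the CD8 markers Cd8a reached at most 6.15 TPM and Cd8b1 up to 36.3 TPM (medians of 0.780 and 2.31 TPM in the spleen groups and 6.31 and 7.42 TPM in the tumor groups, IgG and aGITR+aPD1). The summed level of 15 general T cell genes ran from 445 to 6450 TPM, with medians of 2023 and 1858 TPM in the spleen groups (IgG and aGITR+aPD1) and 2586 and 3579 TPM in the tumor groups. The 10 most abundant features took 31.9 to 78.3% of a library. One tumor IgG library, called here the gene-poor tumor IgG library, stood apart with the fewest genes above 1 TPM (7702, against 17460 in the richest library) and 277 TPM of Il7r, the transcript of the CD127 excluded by the gate. The summed level of 13 macrophage and microglia markers was 6029 TPM in tumor IgG replicate 79_a and 2341 TPM in tumor aGITR+aPD1 replicate 73_a, and 15.9 to 356 TPM in the other 25 libraries. In bulk RNA, fewer cells of a type and less RNA per cell cannot be told apart.

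The plot of levels shows all 10 genes in every library. Foxp3 was present throughout, but its spread was wide in the spleen and narrow in the tumor. Splenic Treg cells had 54.4 to 355 TPM of Foxp3 after IgG (median 168 TPM, n = 7) and 21.5 to 364 TPM after aGITR+aPD1 (median 150 TPM, n = 8). GBM Treg cells of the IgG group had 116, 161, 180, 184 and 240 TPM, and those of the aGITR+aPD1 group 165 to 440 TPM (median 301 TPM, n = 7). The treated tumors stood highest, with 5 of 7 libraries above every tumor IgG library, and the other groups overlapped along most of their range. In the order of the group means on the log2 scale, only the step from the treated tumor to the tumor IgG group (0.79) was larger than the SD within those groups.

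**Figure D1:**
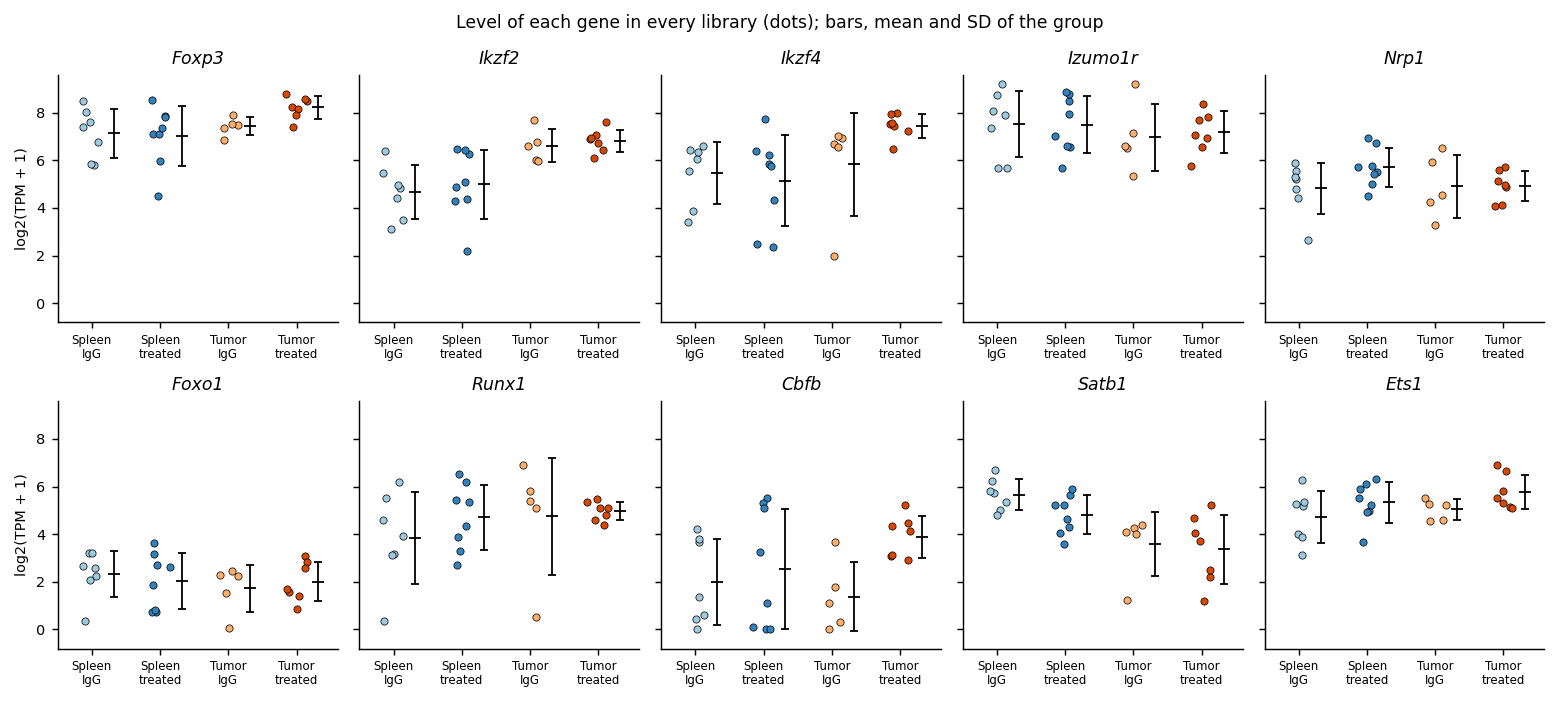
Level of each of the 10 genes as log2(TPM + 1) on the vertical axis in the 4 groups, with 1 dot per library and a bar for the group mean and SD. The mean of Ikzf2 and of Ikzf4 is highest in treated tumors, by a step over the tumor IgG group (0.21 and 1.62) that is within the SD, the mean of Satb1 is highest in IgG spleens, and 1 tumor IgG library (the gene-poor one) lies far below the others for Ikzf4 and Runx1.

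The first question was how GBM Treg cells differ from splenic Treg cells under each treatment. After aGITR+aPD1, 2 of the 10 genes passed the test, Ikzf2 and Ikzf4, both higher in the tumor. Foxp3, Izumo1r, Nrp1, Runx1, Cbfb, Satb1 and Ets1 were tested and did not pass, and Foxo1 was below the level needed for testing. Against this, 17.5% of 7506 genes tested passed in the same comparison and 1189 of those 1310 were higher in the tumor, so 2 of 9 is close to the share over all genes. With libraries centred on general T cell genes 129 genes were higher and 709 lower, with quantile normalization 443 and 651, and with median-ratio scaling 499 and 281. The median log2 fold change was 0.44 over the 9 genes and 0.95 over all genes. After IgG none of 8 genes tested passed the limma test, against 0.569% of 7380 genes, and 2 of them (Ikzf2 and Satb1) had an unadjusted p under 0.05, which 9.93% of all genes had. Under aGITR+aPD1 that unadjusted level was reached by 4 of 9 genes and 40.3% of all genes.

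Ikzf2 stood higher in GBM than in splenic Treg cells under both treatments and passed the test after aGITR+aPD1. Its level was 7.69 to 82.5 TPM (median 27.5) in the spleen after IgG and 3.53 to 87.9 TPM (median 30.6) after aGITR+aPD1. In the tumor it was 62.2, 63.8, 95.5, 109 and 205 TPM after IgG and 68.4 to 193 TPM (median 116) after aGITR+aPD1. The tumor libraries lay above most splenic libraries, 5 of 7 treated tumor libraries above every treated spleen and 3 of 5 tumor IgG libraries above every IgG spleen. The difference was 1.82 ± 0.58 on the log2 scale (± SE, 3.53-fold) after aGITR+aPD1, with an adjusted p of 0.0345 by limma. The exact permutation test of this gene gave an unadjusted p of 0.00513. After IgG the difference was 1.95 ± 0.77, with an adjusted p of 0.365 by limma and an unadjusted p of 0.00758 by the exact permutation test. All p-values of the exact permutation test, here and below, are for 1 gene at a time and unadjusted.

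Ikzf4 passed the test only in the treated mice. Its level in the treated spleen was 4.09 to 211 TPM (median 54.7), and in the treated tumor 87.1 to 251 TPM (median 182). After IgG the spleen held 9.70 to 95.9 TPM (median 65.4) and the tumor 2.90, 91.9, 103, 121 and 127 TPM. All treated tumor libraries were high, whereas the treated spleens were spread from far below the tumor range to within it. The difference was 2.31 ± 0.67 on the log2 scale (4.97-fold, adjusted p = 0.0252 by limma, 0.00513 by the exact permutation test) after aGITR+aPD1 and 0.36 ± 0.89 (adjusted p = 0.891 by limma) after IgG. The value after IgG rested on the gene-poor tumor library, without which it was 1.33, and the difference between the treatments did not pass the test (interaction 1.95 ± 1.14, adjusted p = 0.504 by limma, and 0.99 without that library).

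Both calls lay close to the threshold. Without the treated spleen replicates 70_a and 72_b, the pair with the lowest summed T cell genes (an alternative chosen after seeing the data), Ikzf2 was 1.23 higher in the tumor on the log2 scale and Ikzf4 1.96 higher, with adjusted p-values of 0.105 and 0.0645 by limma. With libraries centred on the mean of the general T cell genes the differences were 0.67 and 1.17, with adjusted p-values of 0.302 and 0.213 by limma. With quantile normalization they were 1.13 and 1.53 (adjusted p = 0.0731 and 0.0718 by limma), and Nrp1 and Satb1 were called in their place. Leaving out 1 library ended the Ikzf4 call for treated tumor replicates 70_b (adjusted p = 0.0551 by limma) and 72_a (0.0517). It ended the Ikzf2 call for treated spleen replicates 70_a (adjusted p = 0.0645 by limma), 70_b (0.0503), 72_b (0.0548) and 72_c (0.0527) and for treated tumor replicates 70_a (0.0636), 70_b (0.0765), 72_a (0.0653), 73_a (0.0586) and 73_b (0.0507). Over all fits that left out 1 library the difference stayed above 0, between 1.42 and 2.03 for Ikzf2 and between 1.91 and 2.68 for Ikzf4.

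Foxp3 itself was 1.19 ± 0.52 higher in the tumor than in the spleen on the log2 scale after aGITR+aPD1 (2.28-fold, adjusted p = 0.0936 by limma, 0.0204 by the exact permutation test) and 0.30 ± 0.72 higher after IgG (adjusted p = 0.888 by limma). Leaving out 1 library moved the IgG value between 0.079 (without spleen replicate 79_a) and 0.53 (without spleen replicate 79_b). These values were close to the median of all genes, 0.95 and 0.48. Centred on T cell genes, the treated difference was 0.044 and the IgG difference was −0.32, so the direction after IgG depended on the scaling, while the treated difference stayed above 0 under every alternative.

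Satb1 stood lower in the tumor under both treatments, as did Izumo1r by a smaller difference, and Nrp1 after aGITR+aPD1, though none of these passed the test. Its level was 27 to 104 TPM (median 51.8) in the spleen after IgG and 11.1 to 58.2 TPM (median 30.2) after aGITR+aPD1. In GBM Treg cells it was 1.33, 15.0, 16, 18.3 and 20.2 TPM after IgG and 1.27 to 36.3 TPM (median 12.3) after aGITR+aPD1. After IgG all 5 tumor libraries lay below all 7 splenic ones. Such a gap was found for 1.48% of genes tested in that comparison, and for 3.0% after aGITR+aPD1, 2.19% between treatments in the tumor and 0.0151% between treatments in the spleen, where none of the 10 genes had one. The log2 difference was −2.07 ± 0.79 after IgG (adjusted p = 0.340 by limma) and −1.46 ± 0.61 after aGITR+aPD1 (adjusted p = 0.0841 by limma, 0.0301 by the exact permutation test). The exact permutation test gave 0.00126 after IgG, the smallest value that 5 libraries against 7 allow. Satb1 was lower in the tumor under every alternative run, by 1.40 to 2.74 after IgG and 0.84 to 2.61 after aGITR+aPD1, and passed the limma test with quantile normalization under both treatments (adjusted p = 0.0482 and 0.023) and with T cell centring after aGITR+aPD1 (adjusted p = 0.0203).

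**Figure D2:**
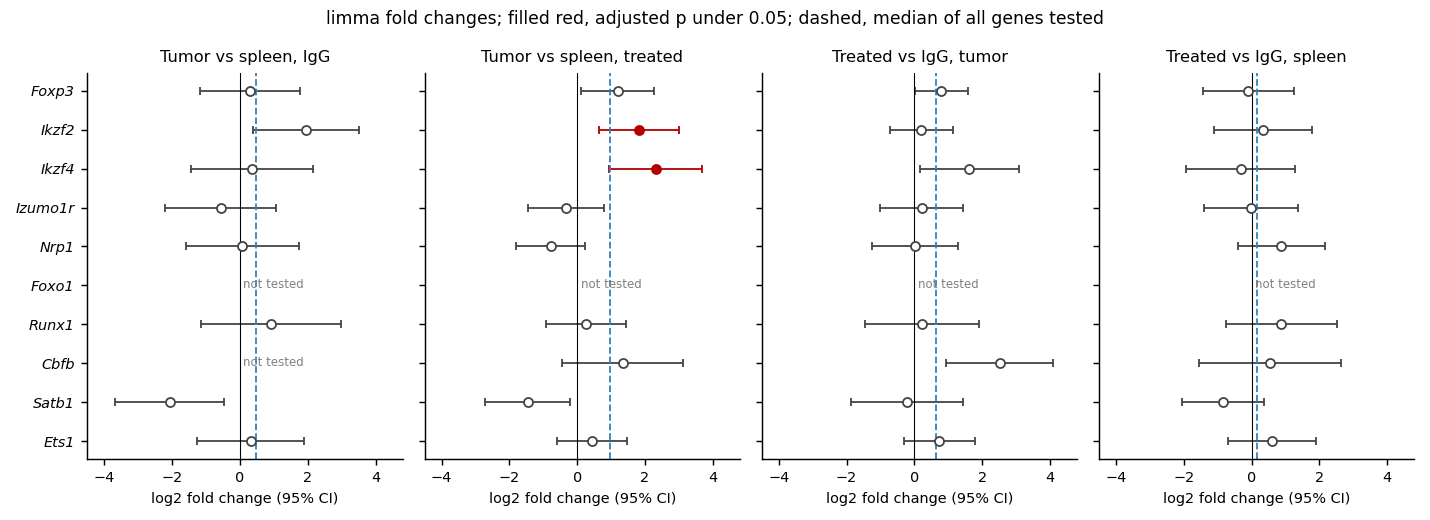
Log2 fold change of each gene from limma on the horizontal axis with its 95% confidence interval in the 4 pairwise comparisons. Filled red symbols mark an adjusted p under 0.05, which only Ikzf2 and Ikzf4 in the treated mice reached, and the dashed line marks the median of all genes tested, which lies above 0 in every panel.

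Neither of the surface markers, Izumo1r and Nrp1, passed the test between tissues. Izumo1r was the most abundant of the 10 in the spleen, with 50.2 to 593 TPM (median 236) after IgG and 50.6 to 460 TPM (median 187) after aGITR+aPD1. In the tumor it was 39.6, 90.0, 94.9, 139 and 596 TPM after IgG, the last in the gene-poor library, and 52.6 to 332 TPM (median 134) after aGITR+aPD1. The groups overlapped, and the log2 difference between tumor and spleen was −0.56 ± 0.81 after IgG and −0.32 ± 0.54 after aGITR+aPD1 (adjusted p = 0.794 and 0.646 by limma). Single libraries set the size of these values. After IgG it was −1.13 without the gene-poor tumor library and −0.16 without tumor replicate 79_a, and after aGITR+aPD1 −0.082 without tumor replicate 73_a. Nrp1 ran from 21.4 to 121 TPM (median 47.9) in the treated spleen and from 15.8 to 51.9 TPM (median 29.8) in the treated tumor, with 5.23 to 57.9 TPM (median 36.2) in the IgG spleen and 8.69, 17.8, 22.6, 60.1 and 89.7 TPM in the IgG tumor. Its difference was −0.78 ± 0.49 after aGITR+aPD1 (adjusted p = 0.222 by limma) and 0.073 ± 0.81 after IgG (adjusted p = 0.980), the latter −0.33 without the gene-poor tumor library. With T cell centring Izumo1r differed by −1.47 and Nrp1 by −1.93 in the treated mice and both passed the test (adjusted p = 0.0165 and 0.0166 by limma). With quantile normalization Nrp1 passed as well (−1.44, adjusted p = 0.0305 by limma), and Izumo1r did not (−0.89, adjusted p = 0.171).

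**Figure D3:**
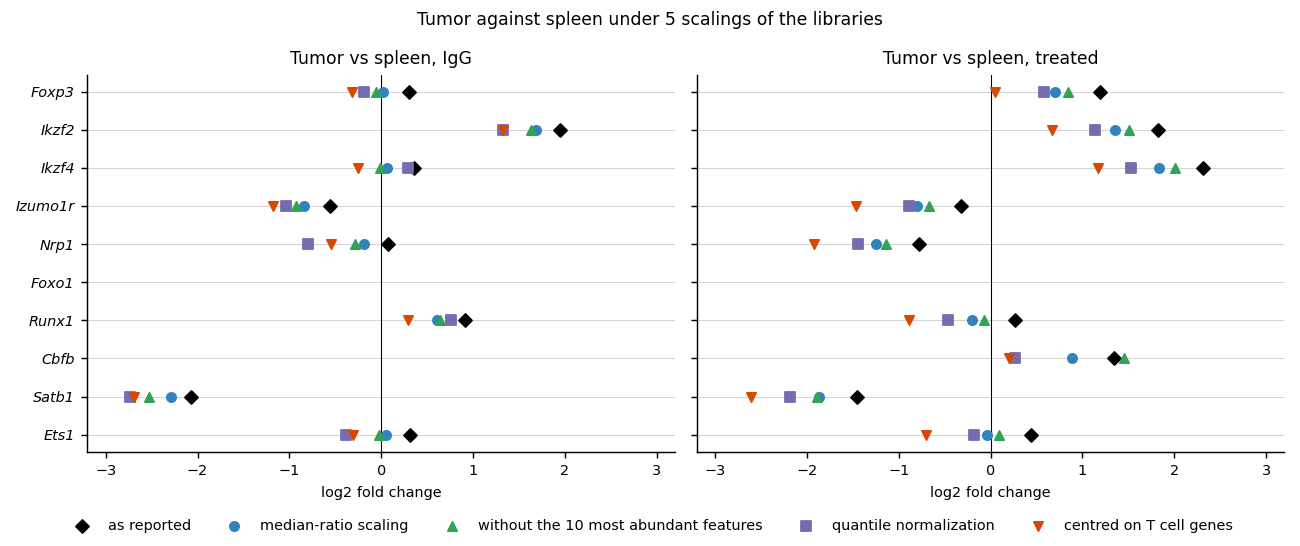
Log2 fold change of each gene between tumor and spleen on the horizontal axis with the libraries scaled in 5 ways, after IgG and after aGITR+aPD1. All points of Ikzf2 lie above 0 and all points of Satb1 and Izumo1r below 0 in both panels, whereas Foxp3, Ikzf4, Nrp1 and Ets1 after IgG and Runx1 and Ets1 after aGITR+aPD1 cross it.

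Of the nuclear partners Runx1, Ets1, Cbfb and Foxo1, Foxo1 had the lowest mean TPM in every group. On the log2 scale the mean of Cbfb was below that of Foxo1 after IgG, in the spleen (2.007 against 2.342) and in the tumor (1.378 against 1.725). Runx1 was 0.270 to 71.7 TPM (median 14.3) in the IgG spleen, 5.62 to 90.3 TPM (median 29.5) in the treated spleen and 19.9 to 43.1 TPM (median 33.6) in the treated tumor. In the IgG tumor it was 0.430, 33.4, 41.7, 56.1 and 119 TPM, the lowest again in the gene-poor library and the highest in 79_a. Its differences between tissues were 0.91 ± 1.02 after IgG and 0.26 ± 0.57 after aGITR+aPD1 (adjusted p = 0.736 and 0.721 by limma), the first 1.97 without the gene-poor library, 0.38 without tumor replicate 79_a and 0.33 without spleen replicate 79_c. Ets1 had means of 32.3 and 44.9 TPM in the spleen and 33.1 and 60.5 TPM in the tumor (IgG and aGITR+aPD1, medians of 35.6, 40.9, 36.8 and 44.4 TPM), and differences between tissues of 0.31 ± 0.78 and 0.44 ± 0.50 (adjusted p = 0.891 and 0.488 by limma). Without 1 library these ran from 0.045 (spleen replicate 79_d) to 0.58 (spleen replicate 79_b) and from 0.21 (spleen replicate 72_b) to 0.58 (spleen replicate 73_a). Cbfb was listed at 0 in 1 of 7 IgG spleens, 2 of 8 treated spleens and 1 of 5 IgG tumors, but in no treated tumor, where it was 6.49 to 36.4 TPM (median 16.5). It was too low for the test between tissues after IgG, and its log2 difference between treated tumor and treated spleen was 1.34 ± 0.87 (adjusted p = 0.231 by limma). The mean TPM of these groups was nearly equal (16.4 and 15.9 TPM), and the treated spleens ran from 0 to 45.2 TPM (median 4.87), on both sides of the tumor range. Foxo1 was above 10 TPM in 1 of 27 libraries, a treated spleen, and its group means were between 2.83 and 4.89 TPM, so no test across all genes was made. Its exact permutation p was 0.321 or more in all 4 comparisons.

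The second question was what aGITR+aPD1 changed within each tissue. No gene passed the limma test in the tumor, 0 of 7848 (0.0%), so none of the 9 genes tested did. An unadjusted p under 0.05 was reached by 3 of the 9, Foxp3, Ikzf4 and Cbfb, each with a higher mean after aGITR+aPD1, against 22.3% of all genes, and the median was 0.23 over the 9 genes and 0.62 over all genes. Foxp3 was 0.79 ± 0.37 higher on the log2 scale (1.73-fold, adjusted p = 0.219 by limma, 0.0152 by the exact permutation test). Ikzf4 was 1.62 ± 0.70 higher (adjusted p = 0.191 by limma, 0.0101 by the exact permutation test), with 6 of 7 treated libraries above every IgG library, and the value was 0.66 without the gene-poor tumor IgG library. Cbfb was 0, 0.250, 1.15, 2.45 and 11.8 TPM after IgG, a mean of 3.13 TPM against 16.4 TPM after aGITR+aPD1, a log2 difference of 2.51 ± 0.75 (adjusted p = 0.106 by limma). It passed the filter on low values only through the treated group, where it is high, so this difference is a description and no support for a change. Without the gene-poor library and replicate 79_a together the Cbfb difference was 1.70 and the Foxp3 difference 0.63 (adjusted p = 0.193 and 0.279 by limma). With T cell centring the Foxp3 difference was −0.0055. Ets1 was 0.74 ± 0.50 higher (adjusted p = 0.370 by limma). Ikzf2 differed by 0.21 ± 0.44, Izumo1r by 0.22 ± 0.59 and Satb1 by −0.23 ± 0.79 (adjusted p = 0.779, 0.831 and 0.867 by limma), with 95% intervals of −0.71 to 1.13, −1.01 to 1.45 and −1.88 to 1.43. Without the gene-poor library these were 0.48, 0.78 and −0.026.

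In the spleen 0 of 6634 genes passed the limma test (0.0%) and 2.53% had an unadjusted p under 0.05, which none of the 9 genes did. The largest differences among the 10 were those of Runx1 (0.88 ± 0.80), Nrp1 (0.87 ± 0.63) and Satb1 (−0.84 ± 0.59), each with an adjusted p of 1.0 by limma, with Runx1 at 0.29 without spleen IgG replicate 79_c and Nrp1 at 0.51 without spleen IgG replicate 77_a. The exact permutation test gave 0.0502 for Satb1 and 0.0934 for Nrp1. Foxp3 differed by −0.10 ± 0.65, with an interval from −1.44 to 1.24. The interaction of tissue and treatment passed the limma test for 0 of 8687 genes tested (0.0%, with 12.2% at an unadjusted p under 0.05), and none of the 9 genes reached an unadjusted p under 0.05. Beside that of Ikzf4 given above, the interaction was 0.89 ± 0.81 for Foxp3 (adjusted p = 0.685 by limma), 0.53 without spleen aGITR+aPD1 replicate 72_b and 0.36 with T cell centring. For Cbfb it was 1.97 ± 1.32, a description only, since Cbfb passed the filter on low values through the treated groups alone.

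Because the total T cell signal differed between libraries, each gene was also measured against Foxp3 in the same library, so that the scaling of the library largely cancels. This measure was chosen after seeing the data, and ratios are of TPM + 1. The 2 of 8 genes tested that passed in the treated mice were Nrp1 and Satb1, both lower against Foxp3 in the tumor. There 4.66% of 7505 genes passed, 297 of those 350 lower, and Foxp3 itself stood 1.19 higher in the tumor. The level of Nrp1 was 0.246 to 0.996 of that of Foxp3 in the treated spleen and 0.0583 to 0.175 in the treated tumor, with no overlap, as for 0.64% of genes. The log2 difference was −1.97 ± 0.53 (adjusted p = 0.0375 by limma), and the exact permutation p was 0.000155, the smallest that 7 against 8 allow. For Satb1 the ratio was 0.0741 to 2.64 in the treated spleen and 0.0127 to 0.0852 in the treated tumor, a log2 difference of −2.65 ± 0.73 (adjusted p = 0.0387 by limma, 0.000932 by the exact permutation test), with 5 of 7 tumor libraries below every spleen. Izumo1r had a median of 1.66 times Foxp3 in the treated spleen and 0.513 times in the treated tumor, a log2 difference of −1.51 ± 0.50 that did not pass (adjusted p = 0.069 by limma, 0.00326 by the exact permutation test).

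Both calls against Foxp3 were lost when single libraries were left out, for Nrp1 and Satb1 each in 10 of 15 fits, with adjusted p-values up to 0.0962 and 0.0952 by limma and differences that stayed between −2.10 and −1.78 and between −2.87 and −2.14. For both genes these were treated spleen replicates 70_a, 72_b, 72_c and 74_a and treated tumor replicates 70_a, 70_b, 72_a, 73_b and 74_a, with tumor replicate 80_a for Nrp1 and 73_a for Satb1. After IgG, 0 of 7 genes passed against Foxp3 (0.529% of all genes), and the differences were 1.65 ± 0.67 for Ikzf2 and −2.37 ± 0.78 for Satb1 (adjusted p = 0.407 and 0.216 by limma, exact permutation p of 0.00253 and 0.00758). Between treatments none of the genes passed in the tumor (2.42% of all genes) or in the spleen (0.0%).

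**Figure D4:**
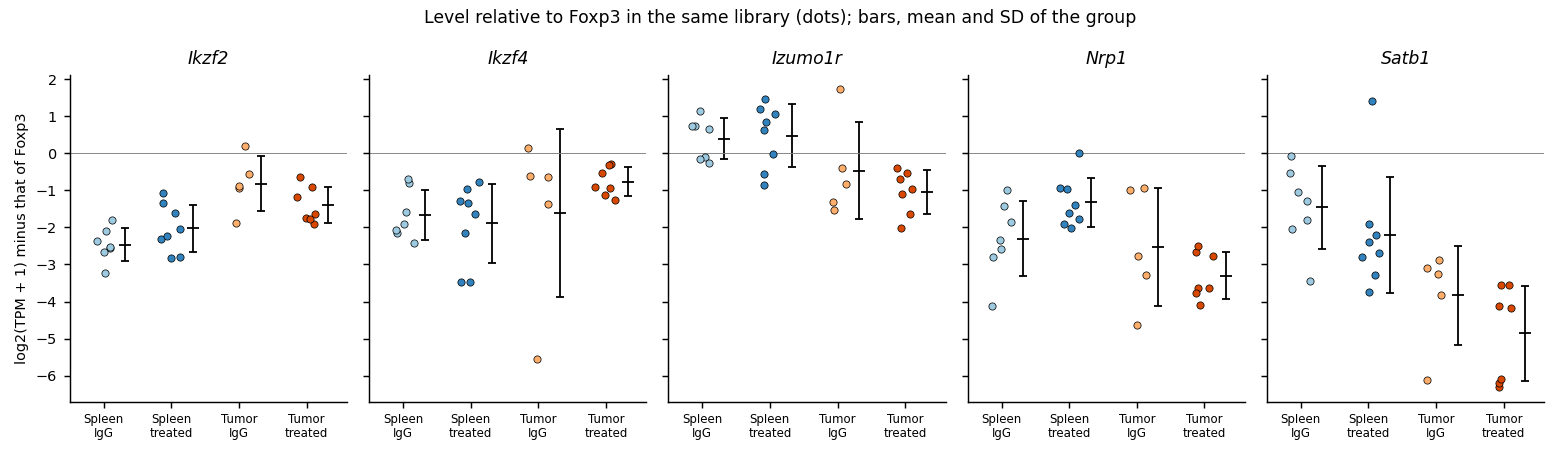
Log2 level of 5 genes minus that of Foxp3 in the same library on the vertical axis in the 4 groups, with 1 dot per library and a bar for the group mean and SD. For Nrp1 all 7 treated tumor libraries lie below all 8 treated spleen libraries, and for Satb1 5 of 7 do.

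The genes were then compared with Foxp3 within the groups, by the correlation of log2(TPM + 1) after the group means were removed (27 libraries, 9 pairs, two-sided permutation within groups, adjusted over all 8687 genes correlated in the same way). Ikzf2 followed Foxp3 most closely, with r = 0.834 and rho = 0.669, and ranked 9 among those genes. Izumo1r (r = 0.734, rho = 0.668), Ikzf4 (r = 0.659, rho = 0.513) and Ets1 (r = 0.651, rho = 0.629) also lay above the 95th percentile of all genes (r = 0.637, median 0.242). The adjusted permutation p for Pearson's r was 0.0079 for Ikzf2, 0.00621 for Izumo1r, 0.0223 for Ikzf4 and 0.0358 for Ets1, and 8.21% of all genes passed. Adjusted in the same way, the permutation p for rho was 0.0779, 0.0713, 0.122 and 0.0855 for these 4 genes, none of which passed, as 16 of the 8687 genes did. Nrp1 (r = 0.463, rho = 0.529), Cbfb (0.485 and 0.414), Runx1 (0.366 and 0.530), Foxo1 (0.258 and 0.367) and Satb1 (0.111 and 0.156) had adjusted permutation p-values for r of 0.0852, 0.147, 0.189, 0.429 and 0.650.

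Foxp3 moved with the summed T cell genes in the same libraries (r = 0.746), as did Ikzf2 (0.896), Izumo1r (0.879) and Ets1 (0.709), and less so Ikzf4 (0.452), and the part of this in the correlations was not tested. With libraries scaled by median ratio, the median over all genes was 0.0501, the 95th percentile was 0.49, and r was 0.720 for Ikzf2, 0.602 for Izumo1r, 0.496 for Ikzf4 and 0.460 for Ets1, which no longer lay above that percentile. Without the 2 libraries farthest from the median of Foxp3, spleen replicates 72_b (aGITR+aPD1) and 79_a (IgG), r was 0.702, 0.669, 0.543 and 0.506. Within the 7 IgG spleens r with Foxp3 was 0.915 for Ikzf2 and 0.935 for Izumo1r, within the 8 treated spleens 0.897 and 0.761, and within the 7 treated tumors 0.458 and 0.783. No such value was computed for the tumor IgG group, the smallest of the groups. Its library highest in Foxp3 (78_a, 240 TPM) had 63.8 TPM of Ikzf2 and 94.95 TPM of Izumo1r. The library lowest in Foxp3 (79_a, 116 TPM) had 62.2 and 39.6 TPM.

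**Figure D5:**
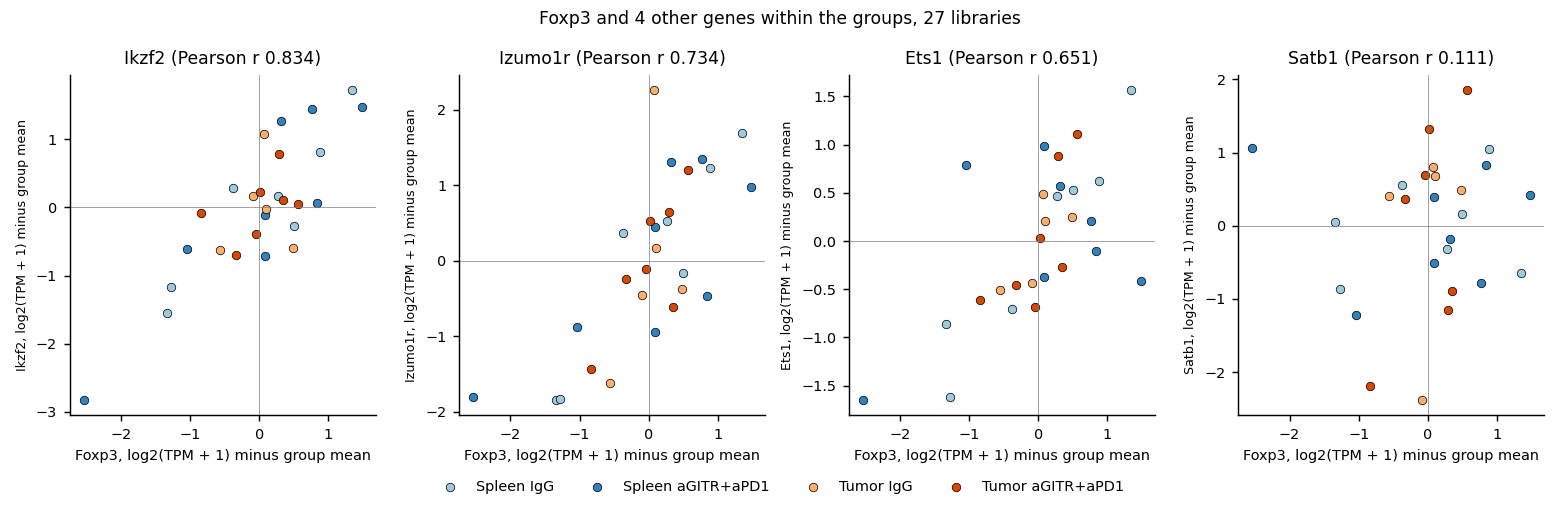
Level of Ikzf2, Izumo1r, Ets1 and Satb1 on the vertical axes against Foxp3 on the horizontal axis, both as log2(TPM + 1) minus the group mean, with 1 dot per library coloured by group. Libraries low in Foxp3 tend to be low in Ikzf2 (r = 0.834) and Izumo1r (r = 0.734), though not all are. Spleen IgG replicate 77_a lies below its group mean in Foxp3 and above it in both other genes. Satb1 (r = 0.111) shows no such order.

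Over all 27 libraries, group means included, the 5 genes most like Foxp3 by Spearman correlation of log2(TPM + 1) were Il2rb (rho = 0.898), the shared β chain of the IL-2 and IL-15 receptors, Eya3 (0.891), a phosphatase and transcriptional coactivator, Gimap3 (0.872), a GTPase of lymphocytes, Itgb7 (0.819), the integrin β7 chain, and Def6 (0.806), a guanine nucleotide exchange factor of T cells. The median over 8686 genes was 0.301. Il2rb had a mean of 462 ± 84 TPM in treated tumors, 262 ± 86 in IgG tumors and 250.0 ± 171 in IgG spleens (SD), and its lowest mean was that of treated spleens, where its log2 level was 1.48 ± 0.48 below that of treated tumors (± SE, adjusted p = 0.0401 by limma). In the same order Ikzf4 ranked 96 (0.697), Ikzf2 114 (0.688), Ets1 975, Cbfb 1545, Izumo1r 1638, Runx1 2358, Nrp1 4963 and Satb1 7425 (rho = −0.132).

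The genes around these 10 were counted in lists, to be read against the 17.5% of all genes that passed between tumor and spleen after aGITR+aPD1, most of them higher in the tumor, and the 0.569% that passed after IgG. Of the genes named below as passing, Runx2 and Gpr83 after IgG and Ets2, Dnmt1, Gpr83, Tcf7, Cx3cr1, C1qa and Alas2 after aGITR+aPD1 had a mean above 10 TPM only in the tissue where they were high. They were tested only through that group, so their differences are descriptions, and the counts that hold them support no change. Of 18 paralogs, Runx2, the sister of Runx1, passed in both treatments. Its mean was 5.66 ± 10.2 and 16.1 ± 23.3 TPM in the spleen (IgG and aGITR+aPD1, SD) and 114 ± 61 and 200.1 ± 97.4 TPM in the tumor, a log2 difference of 4.72 ± 0.85, tested only through the tumor, and 4.83 ± 0.76 (adjusted p = 0.000349 by limma). In the treated mice 9 of 10 paralogs tested had a log2 difference above 0 and 4 passed, all higher in the tumor: Runx2, Runx3 (2.00 ± 0.67), Ets2 (2.22 ± 0.64) and Fli1 (1.85 ± 0.59). After IgG 4 of 11 had a difference above 0 and 1 passed. Among 17 factors known to induce Foxp3 transcription, none of 13 tested passed after IgG and 1 of 14 after aGITR+aPD1, Nr4a3, an early target of T cell receptor signals (2.37 ± 0.80, adjusted p = 0.0443 by limma). Of 18 partners and modifiers of the Foxp3 protein, none of 14 passed after IgG and 2 of 13 after aGITR+aPD1, Stat3 (2.00 ± 0.68) and Runx3. Of 7 genes that write or erase DNA methylation, 1 of 5 tested passed in the treated mice, the maintenance methyltransferase Dnmt1, tested only through the tumor (20.9 TPM against 6.53 TPM in the spleen, 1.97 ± 0.62).

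Of 15 Treg signature genes, 14 had a higher mean log2 level in the tumor than in the spleen under each treatment. After aGITR+aPD1 11 passed the test as higher and 1 as lower, with a median log2 difference of 2.67 (17.5% of all genes passed). The list was chosen with earlier results of these data known, so its count is not independent evidence of a direction. After IgG 2 passed as higher and 1 as lower (0.569% of all genes), 11 had an unadjusted p under 0.05 (9.93% of all genes), and the median was 2.81. Icos and Tigit, receptors of activated Treg cells, passed as higher under both treatments (4.39 ± 0.80 and 4.94 ± 0.88 after IgG, 4.27 ± 0.71 and 3.63 ± 0.74 after aGITR+aPD1). The others that passed in the treated mice were Il2ra, Il2rb, Tnfrsf18 (GITR, the target of one of the antibodies), Tnfrsf4, Capg, Entpd1 (CD39), Ctla4, Ebi3 and Itgae. The gene that passed as lower was Gpr83, a receptor of resting Treg cells, at 56.3 and 32.7 TPM in the spleen (IgG and aGITR+aPD1) and 1.55 and 2.43 TPM in the tumor, differences of −4.33 ± 0.85 and −3.36 ± 0.63 on the log2 scale in a gene tested only through the spleen. Of 8 Foxo1 targets and resting T cell genes, 2 of 6 tested passed as lower in the treated tumor, the homing receptor Ccr7 (−2.15 ± 0.56, adjusted p = 0.0152 by limma) and the transcription factor Tcf7, tested only through the spleen (29.7 TPM against 6.23 TPM in the tumor, −2.70 ± 0.61). None of 7 passed after IgG, where 5 had an unadjusted p under 0.05 (9.93% of all genes) and the median was −2.49. The 7 include Tcf7, tested there only through the spleen (25.5 TPM against 1.54 TPM in the tumor), so this count and median are descriptions. None of these lists held a gene that passed between treatments in either tissue. The inducer and the partner of Foxp3 with the highest mean over all libraries were Nfatc1 and Stat3. In the tumor they stood 1.19 ± 0.47 and 1.60 ± 0.73 higher after aGITR+aPD1 on the log2 scale (adjusted p = 0.169 and 0.209 by limma). In IgG tumors the inducer Nr4a3 had a higher mean than Nfatc1 (70.9 against 48.1 TPM).

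Markers of other cells were counted in the same way. Of 13 macrophage and microglia markers, 7 of 9 tested had a difference above 0 between tumor and spleen in the treated mice, and 2 passed, near the 17.5% of all genes. Both were tested only through the tumor, Cx3cr1 at 24.1 TPM against 2.56 TPM in the spleen and C1qa at 74 TPM against 6.06 TPM. After IgG 10 of 11 had a difference above 0 and none passed by limma, with 2 at an unadjusted p under 0.05 (9.93% of all genes). The 11 include genes tested only through the tumor, so these counts are descriptions. Among them were Cx3cr1 (19.3 TPM against 0.51 TPM in the spleen) and C1qa (168 TPM against 2.16 TPM). Of 15 general T cell genes, all 15 had a difference above 0 in the treated mice and 5 passed (Trac, Lck, Cd2, Cd247 and Cd3e), while after IgG 12 had one and none passed by limma, with 2 at an unadjusted p under 0.05. The B cell marker Igkc passed as higher in the treated tumor (2.39 ± 0.82, adjusted p = 0.0458 by limma) and the erythroid marker Alas2, tested only through the spleen, as lower (−3.83 ± 0.93), each the only called gene of its list. No neural or glial, CD8, NK or endothelial marker passed in any comparison by limma, with 5 NK markers and most neural and endothelial ones too low to be tested. The neural and glial markers with an unadjusted p under 0.05 numbered 2 after IgG, of which Mbp was the more abundant (2.99 ± 0.88, adjusted p = 0.124 by limma, tested only through the tumor). Summed macrophage and microglia markers were 56.7 to 2341 TPM in treated tumors and 15.9 to 356 TPM in treated spleens, and summed B cell markers 147 to 386 and 53.1 to 509 TPM. The highest sum of B cell markers in any library was 1374 TPM, in spleen IgG replicate 79_b, which also had 79.97 TPM of Il7r. The part of these markers in the differences of the 10 genes was not tested. Without tumor aGITR+aPD1 replicate 73_a, the treated tumor library with the most macrophage transcripts, the differences between tumor and spleen were 1.83 for Ikzf2, 2.48 for Ikzf4 and −1.09 for Satb1.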

How the data were processed

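Treg cells from spleens and tumors were profiled by Smart-Seq2 on a NextSeq500. Per the submitters' processing notes and the methods of the study, the authors converted reads with bcl2fastq, aligned them to mm10 with TopHat2 and computed TPM with RSEM. Their versions and the annotation are not given in the sources used here. The deposited table holds TPM plus 1 for each feature, a value other than counts, so 1 was taken off. Read depth is unknown, so errors here are the scatter among the 27 libraries. The table's 1 value column without a name was not used, so 1 of 9 treated spleens has no values here.

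Values of log2(TPM + 1) were tested with limma 3.58.1 in R 4.3.3 (lmFit, eBayes with trend, two-sided) on the groups compared. Genes with a mean above 10 TPM in at least 1 group were tested, p-values were adjusted by Benjamini-Hochberg over all of them, and adjusted p under 0.05 was called. The fold changes are on this log2 scale, which understates those of low genes. The tests were checked on simulated data. Single genes also had an exact permutation test, whose p-values were not adjusted. Correlations had 100000 permutations within groups (scipy 1.17.1). The 10 genes and all lists were chosen with earlier results of these data known. All members of the lists were counted, and those past the threshold named, or the most abundant where none passed. The erythroid genes Hba-a1, Hba-a2, Hbb-bs and Hbb-bt and the partner Bcl11b were not analysed here.

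The alternatives were pseudocounts of 0.1 and 10, other filters, 4 other scalings, a covariate, library weights, 1 fit of all groups, a replicate block and each library left out. Chosen after seeing the data were the measure relative to Foxp3, leaving out 2 tumor IgG libraries or the 4 spleens of lowest summed T cell genes, and adjusting the correlations over all genes. Within a tissue each library is described as a different mouse. The study's text counts fewer animals than there are spleen libraries, so p-values measure the spread between these libraries.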

Additional observations from a re-analysis of the deposited data

Results flagged for a closer look

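In 40 groups of values (10 genes, 4 groups) the highest or lowest library was compared with its neighbours by Dixon's criterion, which chance meets in about 1 in 20 groups, and 4 met it. Ikzf4 was 2.90 TPM and Runx1 0.430 TPM in the tumor IgG library with the fewest genes above 1 TPM, far below the other 4 libraries of that group (91.9 TPM or more and 33.4 TPM or more). Satb1 was 1.33 TPM in tumor IgG replicate 76_a, against 15.0 TPM or more in the other 4. Foxo1 was 0.290 TPM in spleen IgG replicate 79_a, which also had the lowest summed T cell genes of all libraries (445 TPM). No interaction of tissue and treatment passed the limma test for any of the genes.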

How the results depend on the processing

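Of 1276 values of the 10 genes under alternatives, 1141 kept their direction and their side of the threshold, 28 lost a call, 7 gained one and 100 changed sign, none of those with a call. Ikzf2 (higher), Satb1 (lower) and Izumo1r (lower) kept their direction between tumor and spleen under every alternative run for both treatments. The median of all genes in that comparison moved with the scaling, after IgG and after aGITR+aPD1 from 0.48 and 0.95 as reported to 0.24 and 0.52 with median-ratio scaling, 0.043 and 0.15 with quantile normalization, 0.23 and 0.71 without the 10 most abundant features and −0.14 and −0.19 with T cell centring. Calls between treatments in the tumor over the whole table went from 0 to 247 with T cell centring, 263 with library weights and 79 with the number of genes detected as a covariate, none of them among the 10 genes. Read depth is unknown, so what it limits cannot be given. The cause of these changes was not tested.

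Of the 10 genes, 1 was called between tumor and spleen after IgG (Satb1) with quantile normalization and with library weights. After aGITR+aPD1 the 2 calls became 1 with a pseudocount of 0.1 and 0 without the filter on low values (more genes tested), with median-ratio scaling, without the 10 most abundant features, with genes detected as a covariate and without the spleen libraries of lowest T cell content, and 0 to 2 when 1 library was left out. Quantile normalization gave 2 calls, but of Nrp1 and Satb1, with Ikzf2 at 1.13 and Ikzf4 at 1.53 no longer called, and T cell centring 3, of Izumo1r, Nrp1 and Satb1. The replicate block, which pairs a spleen and a tumor library of the same number and letter in their labels, gave 0 calls of the 10 genes and, over the whole table, 0 after IgG and 1 after aGITR+aPD1. Whether libraries of the same number came from 1 mouse is not stated. Of 9 pairs 1 had a correlation over 0.1 and 2 correlated best with their own number. This cannot decide whether they share a mouse, since the correlation of libraries known to share one is not available. The main tests treated the pairs as sharing only a label. Several spleen libraries carry the same number with another letter (4 of 7 IgG spleens the number 79, 3 of 8 treated spleens the number 70), and sharing by the number alone was not tested. Values that changed sign under the replicate block were −0.091 for Ikzf4 and −0.21 for Runx1 after IgG, −0.22 for Runx1 and −0.13 for Cbfb after aGITR+aPD1, and −0.10 for Izumo1r and −0.14 for Ets1 in the interaction.

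Sign changes between tumor and spleen after IgG were Foxp3 −0.18, Nrp1 −0.80 and Ets1 −0.38 (quantile), Nrp1 −0.19 (median ratio), Foxp3 −0.057, Ikzf4 −0.010, Nrp1 −0.28 and Ets1 −0.023 (10 features left out), Foxp3 −0.32, Ikzf4 −0.26, Nrp1 −0.54 and Ets1 −0.30 (T cell centring), Nrp1 −0.77 (library weights), Nrp1 −0.80 (without the gene-poor tumor IgG library and 79_a), and Foxp3 −0.22, Ikzf4 −0.37, Nrp1 −0.016 and Ets1 −0.18 (without the spleens of lowest T cell content). After aGITR+aPD1 they were Runx1 −0.47 and Ets1 −0.18 (quantile), Runx1 −0.21 and Ets1 −0.035 (median ratio), Runx1 −0.070 (10 features left out), Runx1 −0.88 and Ets1 −0.71 (T cell centring) and Runx1 −0.076 (library weights). Between treatments in the tumor they were Nrp1 −0.10 and Runx1 −0.64 (quantile), Ikzf2 −0.26, Izumo1r −0.25, Nrp1 −0.44 and Runx1 −0.068 (median ratio), Nrp1 −0.075 (10 features left out), Foxp3 −0.0055, Ikzf2 −0.59, Izumo1r −0.58, Nrp1 −0.78, Runx1 −0.57 and Ets1 −0.058 (T cell centring), Runx1 −0.50 and Satb1 0.34 (library weights), Runx1 −0.47 and Satb1 0.17 (without the gene-poor tumor IgG library and 79_a), and Nrp1 −0.045 and Runx1 −0.16 (pseudocount 10). In the spleen they were Foxp3 0.20, Ikzf4 0.072 and Izumo1r 0.20 (genes detected) and Cbfb −0.21 (without the spleens of lowest T cell content). In the interaction they were Izumo1r −0.29 and Ets1 −0.40 (T cell centring), Ikzf2 0.083 (library weights), and Ikzf2 0.020 and Nrp1 0.025 (without the gene-poor tumor IgG library and 79_a). The correlation of Foxo1 with Foxp3 was −0.125 with median-ratio scaling.

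Leaving out 1 library at a time gave values on both sides of 0 for Nrp1 after IgG (−0.33 to 0.48) and Runx1 after aGITR+aPD1 (−0.022 to 0.52) between tissues, for Izumo1r (−0.19 to 0.78), Nrp1 (−0.39 to 0.42), Runx1 (−0.83 to 0.76) and Satb1 (−0.82 to 0.14) between treatments in the tumor, for Foxp3 (−0.32 to 0.26), Ikzf4 (−0.70 to 0.071) and Izumo1r (−0.33 to 0.26) in the spleen, and for Ikzf2 (−0.53 to 0.14), Izumo1r (−0.16 to 0.81) and Ets1 (−0.13 to 0.40) in the interaction.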
